A study of Mus musculus with 16 samples.

Results

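The Cyp3a family comprises the cytochrome P450 genes of subfamily 3A in the mouse, and 6 of its genes are described here: Cyp3a11, Cyp3a13, Cyp3a16, Cyp3a25, Cyp3a44 and Cyp3a59. The members were chosen by gene symbol, from expression rows annotated to exactly 1 symbol, and where a gene had several rows the row of highest mean over the 16 arrays was taken. They are 6 of the 22180 genes with such a row, and 6 of 6 were among the 13555 genes tested, which had to lie above the array median on at least 4 of 16 arrays; Cyp3a16 did so only in non-tumour liver and in the MYC/REG3A tumours of mice 2 and 4. Falls of Cyp3a16, Cyp3a44 and Cyp3a13 in tumours were already known from earlier results of these data when the family was picked, so their values below describe these animals and are no independent support for that direction.

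The study measured total RNA of liver tumours and of the surrounding non-tumour liver from 8 transgenic mice by microarray. In the 4 MYC/REG3A mice, of genotype MYC+/+, REG3A+/+, and the 4 MYC mice, of genotype MYC+/+, REG3A-/-, one tumour and one non-tumour sample came from each animal, which gave 4 groups of 4 arrays. All the mice were C57BL/6J animals aged 18 months and all carried the MYC oncogene, expressed in liver under woodchuck hepatitis virus control, so that no group is a liver without the oncogene. What drives REG3A, a secreted lectin of the regenerating islet-derived family, and the sex of the animals are not given in the sources used here.

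Enzymes of the 3A subfamily sit in the endoplasmic reticulum of hepatocytes, where they oxidise drugs, steroids and bile acids with electrons passed on from P450 reductase and cytochrome b5. Their transcription in liver depends on hepatocyte factors such as HNF4A and HNF6, and it is raised by the xenobiotic receptors PXR and CAR, each acting with RXR. In adult mouse liver some members are expressed in both sexes, Cyp3a11 being the best known drug-inducible one, whereas Cyp3a16 and Cyp3a44 are female-biased, a difference set by the pattern of growth hormone release that acts through STAT5.

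The 6 genes lie on chromosome 5 of the mouse build GRCm38.p6. Cyp3a16 (chr5:145436309-145469740), Cyp3a44 (chr5:145773983-145805891), Cyp3a11 (chr5:145854607-145879854), Cyp3a25 (chr5:145977192-146009644) and Cyp3a59 (chr5:146079208-146114978) lie in a row, and Cyp3a13 (chr5:137892933-137925610) lies apart from them. All 6 had a promoter window of 300 bases in the RefSeq table of the same build, with 250 bases before the start site and 50 after it. Aligned over these windows, Cyp3a16 and Cyp3a44 were 93.4% identical and Cyp3a25 and Cyp3a59 were 95.7% identical. The Cyp3a11 window was 75.5% identical to that of Cyp3a16 and 71.5% identical to that of Cyp3a44, and the other pairs lay between 49.5% and 55.0%. The window listed for Cyp3a13 starts inside the annotated gene, so it belongs to one of the gene's start sites only.

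The windows of the near-identical pair Cyp3a16 and Cyp3a44, which fell furthest in tumours, are printed with that of Cyp3a11, their closest relative by promoter, which passed the test for a tumour change in neither genotype. Capitals mark ATTGAT, a core of HNF6 sites, or AGTTCA, an element of PXR and CAR sites, on either strand; on the opposite strand they read ATCAAT and TGAACT. The Cyp3a16 window is chr5:145469674-145469973, the Cyp3a44 window chr5:145805825-145806124 and the Cyp3a11 window chr5:145879805-145880104, all on the minus strand and written in the direction of transcription.
Cyp3a16: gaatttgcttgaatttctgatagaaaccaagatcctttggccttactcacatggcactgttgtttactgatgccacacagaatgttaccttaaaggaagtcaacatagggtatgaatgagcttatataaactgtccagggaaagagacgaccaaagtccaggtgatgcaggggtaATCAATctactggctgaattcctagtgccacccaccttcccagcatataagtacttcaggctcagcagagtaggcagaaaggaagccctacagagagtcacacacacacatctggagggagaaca
Cyp3a44: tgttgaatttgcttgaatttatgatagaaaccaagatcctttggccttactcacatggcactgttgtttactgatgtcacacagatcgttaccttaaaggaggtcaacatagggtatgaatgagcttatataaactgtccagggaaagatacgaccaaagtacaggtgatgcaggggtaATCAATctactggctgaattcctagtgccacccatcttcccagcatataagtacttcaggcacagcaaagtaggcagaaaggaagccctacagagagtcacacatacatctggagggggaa
Cyp3a11: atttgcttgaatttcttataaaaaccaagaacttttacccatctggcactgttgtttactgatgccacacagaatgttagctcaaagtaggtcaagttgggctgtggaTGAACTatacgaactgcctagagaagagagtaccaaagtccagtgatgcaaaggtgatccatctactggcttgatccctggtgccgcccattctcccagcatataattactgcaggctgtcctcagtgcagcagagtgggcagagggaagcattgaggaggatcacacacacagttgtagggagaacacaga

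ATTGAT occurred once in the windows of Cyp3a16 and Cyp3a44, at base -75 and base -71 from the start site, and in none of the other 4 windows, and 7.54% of all 32851 RefSeq windows of this length held it. AGTTCA occurred only in the Cyp3a11 window among the 6, at base -142, and in 13.99% of all windows. The letters TATAAA, which spell the TATA box but stood farther from the start site than that element usually does, were found at -126 in Cyp3a16, at -122 in Cyp3a44 and at -234 in Cyp3a11, and in 13.6% of all windows. TTCNNNGAA, a STAT5 site, occurred in 8.30% of all windows and in none of the 6. Each motif was searched on both strands and no match overlapped one of another motif. A match describes these letters only, and a window without one may still be bound.

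Values are log2 expression from RMA, a method that makes the arrays' distributions alike, so each is relative to the other RNAs of its sample. Array means lay between 5.43 and 5.47 and lower quartiles between 3.71 and 3.77; the deposited table has no detection calls, and a value below the lower quartile is treated here as near background, so that a fall to it is a lower bound. Along the first principal component of the tested genes, which carried 49.2% of their variance, the MYC/REG3A tumours of mice 2 and 4 lay at -4.21 and 2.55, between the other 6 tumours (32.7 to 42.3) and the 8 non-tumour livers (-31.0 to -26.4). Tumour changes of the members that rest on these mice, and MYC/REG3A calls of other named genes that change without them, are therefore also given without them. Summed hepatocyte marker levels were 16.02 to 16.21 in MYC/REG3A tumours and 16.15 to 16.29 in MYC/REG3A non-tumour liver. They were 16.05 to 16.16 in MYC tumours and 16.13 to 16.21 in MYC non-tumour liver. The sum rests mostly on genes near the top of the scale, such as Alb at 13.26 to 13.57, where array maxima were 13.55 to 13.68. It is therefore not read as equal hepatocyte content. Singly, the 11 markers tested changed by -0.72 to -0.003 in MYC/REG3A mice and by -0.63 to 0.25 in MYC mice. The rows of mouse Reg3a and Reg3g lay below the lower quartile on all 16 arrays, and that of Reg3b lay at 3.66 to 4.17, below the median of every array. The row of Myc lay between 6.84 and 9.37. Its highest values were those of MYC/REG3A mouse 2, 9.24 in non-tumour liver and 9.37 in the tumour, and on the other arrays it did not exceed 7.97. Whether these rows detect the transgenes is not stated, so they check neither label. In whole tissue, fewer cells that express a gene and less of its RNA per cell cannot be told apart.

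**Figure D1:**
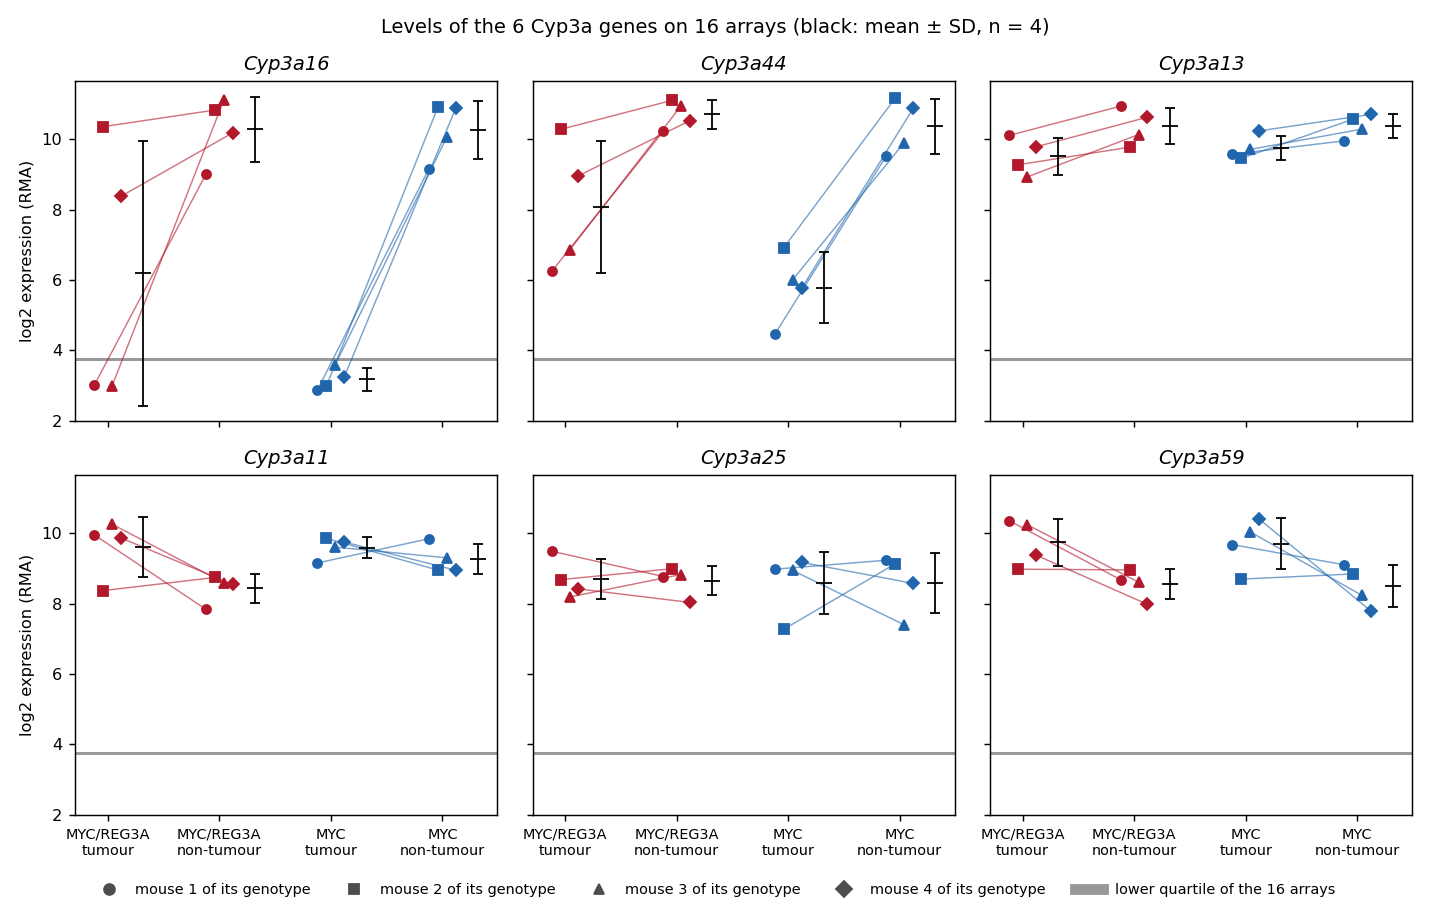
Log2 expression (RMA) of the 6 Cyp3a genes in each of the 16 samples, with tumour and non-tumour liver of the same mouse joined, MYC/REG3A mice in red and MYC mice in blue; black marks are the mean ± SD (n = 4) and the grey band is the range of the arrays' lower quartiles. Cyp3a16 lay below the band in 2 of 4 MYC/REG3A tumours and in 4 of 4 MYC tumours, whereas Cyp3a25 showed no common direction.

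Tumour was first compared with non-tumour liver of the same animal, which asks how the family differs between the 2 tissues in each genotype. The family split: Cyp3a16, Cyp3a44 and Cyp3a13 were lower in tumours of both genotypes, Cyp3a59 was higher in MYC tumours, and Cyp3a25 and Cyp3a11 did not pass the test in either. In MYC/REG3A mice 3 of 6 members fell, where 4.88% of all tested genes did, and 0 of 6 rose, where 7.58% did. In MYC mice 3 of 6 fell, where 15.8% of all tested genes did, and 1 of 6 rose, where 17.4% did. The median change of the 6 members was -0.40 in MYC/REG3A mice, against -0.02 over all tested genes, and -0.31 in MYC mice, against -0.03 over all tested genes. Since the falls were known when the family was picked, nothing about the family as a whole is read from these counts. Calls are adjusted p-values under 0.05 from limma, a linear model fitted to all tested genes with mouse as a block. The fit pools the spread of both genotypes, so a gene's standard error is the same in each and is not the spread of either alone.

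Cyp3a16, known mainly from fetal and young liver and from adult females, had the largest fall of the family in both genotypes. In the MYC/REG3A tumours of mice 1 to 4 its log2 level was 3.01, 10.36, 2.99 and 8.38, and in their non-tumour liver it was 9.01, 10.83, 11.11 and 10.19. In the MYC tumours it was 2.87, 2.98, 3.59 and 3.24, against 9.17, 10.92, 10.07 and 10.89 in their non-tumour liver. All 4 MYC tumours and the MYC/REG3A tumours of mice 1 and 3 were near background, whereas the MYC/REG3A tumour of mouse 2 was within the range of non-tumour liver. The groups did not overlap in MYC mice and overlapped in MYC/REG3A mice. The change was -4.10 in MYC/REG3A mice (SE 1.02, 95% interval -6.38 to -1.82, limma adjusted p = 0.0312) and -7.09 in MYC mice (SE 1.02, 95% interval -9.37 to -4.82, limma adjusted p = 0.0014), both lower bounds. These errors and intervals are pooled: the SD of the 4 paired differences was 3.57 in MYC/REG3A mice and 0.83 in MYC mice. The MYC/REG3A call was lost without mouse 1 (-3.47, adjusted p = 0.146) and without mouse 3 (-2.76, adjusted p = 0.122), the animals whose tumours lay near background, and without the filter on low values (adjusted p = 0.0512), with arrays weighted by their quality (-3.27, adjusted p = 0.0563) or in a fit of that genotype alone (adjusted p = 0.0659). Without mice 2 and 4 together the MYC/REG3A change was -7.06 (adjusted p = 0.00172), again a lower bound.

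Cyp3a44, a female-biased enzyme of adult mouse liver, fell in the same animals. Its level was 6.24, 10.28, 6.85 and 8.97 in the MYC/REG3A tumours of mice 1 to 4 and 10.23, 11.11, 10.96 and 10.54 in their non-tumour liver. In MYC tumours it was 4.46, 6.92, 6.01 and 5.76, against 9.54, 11.18, 9.91 and 10.88 in non-tumour liver. Unlike Cyp3a16, it stayed above the lower quartile in every tumour, and in 1 MYC tumour it was below the array median. The MYC groups did not overlap, and the MYC/REG3A groups overlapped by the tumour of mouse 2. The change was -2.62 in MYC/REG3A mice (SE 0.500, 95% interval -3.74 to -1.51, limma adjusted p = 0.0142) and -4.59 in MYC mice (SE 0.500, 95% interval -5.71 to -3.47, limma adjusted p = 0.00061). The SD of the paired differences was 1.67 in MYC/REG3A mice and 0.61 in MYC mice. Mice 1 and 3 carried the MYC/REG3A call, which was lost without either (-2.17, adjusted p = 0.0762; -2.13, adjusted p = 0.0712), and without mice 2 and 4 the change was -4.05 (adjusted p = 0.00171). In MYC mice the calls of Cyp3a16 and Cyp3a44 held under 19 of 19 alternative settings, with changes of -7.36 to -6.81 and of -4.82 to -4.42. Some of these settings, such as leaving out MYC/REG3A mice, cannot move the MYC change and alter only its error and adjusted p.

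Cyp3a13, an enzyme of liver and small intestine, was lower by a smaller and more even amount. Its level was 10.11, 9.28, 8.93 and 9.79 in MYC/REG3A tumours, against 10.95, 9.78, 10.14 and 10.63 in their non-tumour liver. It was 9.58, 9.46, 9.72 and 10.24 in MYC tumours, against 9.96, 10.57, 10.29 and 10.71 in their non-tumour liver. The groups overlapped in both genotypes, yet the tumour was the lower sample in 8 of 8 mice, by 0.50 to 1.21 in MYC/REG3A mice and by 0.38 to 1.11 in MYC mice. The change was -0.85 in MYC/REG3A mice (SE 0.147, limma adjusted p = 0.0102) and -0.63 in MYC mice (SE 0.147, limma adjusted p = 0.00957). Without the mouse as a block, neither change passed the test (adjusted p = 0.0618 in MYC/REG3A mice and 0.0972 in MYC mice), and with the mouse as a random block the MYC call was lost (adjusted p = 0.0677). The MYC/REG3A call was also lost without mouse 1 (adjusted p = 0.0508) or mouse 3 (adjusted p = 0.0575), with changes of -0.85 and -0.73.

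Cyp3a59, a close relative of Cyp3a25, was the member that was higher in MYC tumours. Its level was 10.36, 8.98, 10.25 and 9.38 in MYC/REG3A tumours and 8.68, 8.96, 8.61 and 7.98 in their non-tumour liver. In MYC tumours it was 9.68, 8.70, 10.05 and 10.41, against 9.11, 8.85, 8.24 and 7.80 in non-tumour liver. The MYC/REG3A groups did not overlap, by a margin of a few hundredths at mouse 2, and the MYC groups overlapped because mouse 2 had the lower level in its tumour. The change was 1.19 in MYC/REG3A mice (SE 0.413, 95% interval 0.26 to 2.11, limma adjusted p = 0.0859) and 1.21 in MYC mice (SE 0.413, 95% interval 0.29 to 2.14, limma adjusted p = 0.0474). The MYC call lay close to the threshold: it held under 9 of 19 alternatives, with adjusted p-values of 0.0153 to 0.208, and without MYC mouse 4, whose tumour differed most, the change was 0.74. In MYC/REG3A mice the gene passed the test under 3 of 19 alternatives, among them the fit without mouse 2 (1.57, adjusted p = 0.0477).

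Cyp3a11, the main drug-inducible 3A enzyme of adult mouse liver, had 9.96, 8.37, 10.26 and 9.87 in MYC/REG3A tumours, against 7.84, 8.75, 8.60 and 8.55 in their non-tumour liver. In MYC tumours it had 9.16, 9.86, 9.61 and 9.75, against 9.85, 8.95, 9.31 and 8.95 in non-tumour liver. The tumour was the higher sample in 3 of 4 MYC/REG3A mice and in 3 of 4 MYC mice, and the groups overlapped in both genotypes. The change was 1.18 in MYC/REG3A mice (SE 0.372, 95% interval 0.35 to 2.01, limma adjusted p = 0.0642) and 0.33 in MYC mice (SE 0.372, 95% interval -0.50 to 1.16, limma adjusted p = 0.53). Mouse 2, the exception among the MYC/REG3A mice, decided the first value: without it the change was 1.70 (adjusted p = 0.0126), and without mice 2 and 4 it was 1.89 (adjusted p = 0.0218). The gene also passed the test in MYC/REG3A mice with no block for the mouse (adjusted p = 0.0364) and with a random one (adjusted p = 0.0275). The MYC change passed under none of 19 alternatives.

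Cyp3a25, an enzyme of adult liver and intestine, showed no common direction. It had 9.49, 8.68, 8.19 and 8.42 in MYC/REG3A tumours and 8.77, 8.996, 8.83 and 8.04 in their non-tumour liver. It had 8.98, 7.27, 8.95 and 9.18 in MYC tumours and 9.24, 9.14, 7.40 and 8.58 in their non-tumour liver. The tumour was higher in 2 of 4 mice of each genotype, and single animals moved by as much as -1.87 and 1.55. The change was 0.04 in MYC/REG3A mice (95% interval -0.96 to 1.03, limma adjusted p = 0.967) and 0.01 in MYC mice (95% interval -0.99 to 1.0, limma adjusted p = 0.993), so that changes of about 1 in either direction lie within the intervals.

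**Figure D2:**
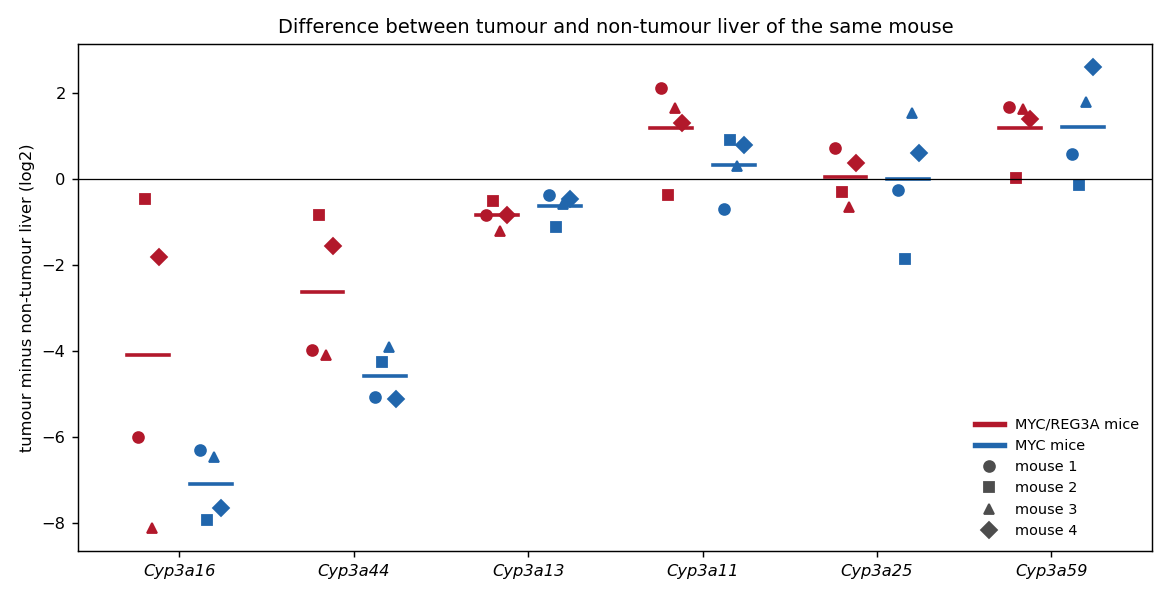
Tumour minus non-tumour log2 level of the same mouse for each gene, with MYC/REG3A mice in red, left of MYC mice in blue, and bars at the mean of 4 mice. The Cyp3a16 difference lay between -8.12 and -0.47 in MYC/REG3A mice and between -7.94 and -6.30 in MYC mice, and the Cyp3a13 difference was below 0 in 8 of 8 mice.

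Cyp3a16 and Cyp3a44 followed each other across samples. Their Pearson r was 0.968 over the 16 arrays and 0.926 over the 8 tumour minus non-tumour differences, which describes samples that share mice and fall into separate clusters. In MYC/REG3A mice the order of the falls was the same for both genes, with mouse 2 least changed (-0.47 for Cyp3a16, -0.83 for Cyp3a44), then mouse 4 (-1.80, -1.57), mouse 1 (-6.00, -3.99) and mouse 3 (-8.12, -4.11). In MYC mice the falls ranged from -7.94 to -6.30 for Cyp3a16 and from -5.12 to -3.90 for Cyp3a44. Cyp3a25 and Cyp3a59, whose promoters are as alike as those of that pair, had r values of 0.474 over the arrays and 0.717 over the differences. Of the other pairs over the 16 arrays, the highest r was 0.611, for Cyp3a11 and Cyp3a59, and the lowest was -0.78, for Cyp3a44 and Cyp3a59 and for Cyp3a16 and Cyp3a59. Genes this alike in sequence may share probe signal, and how far one row reads the RNA of another gene was not tested.

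**Figure D3:**
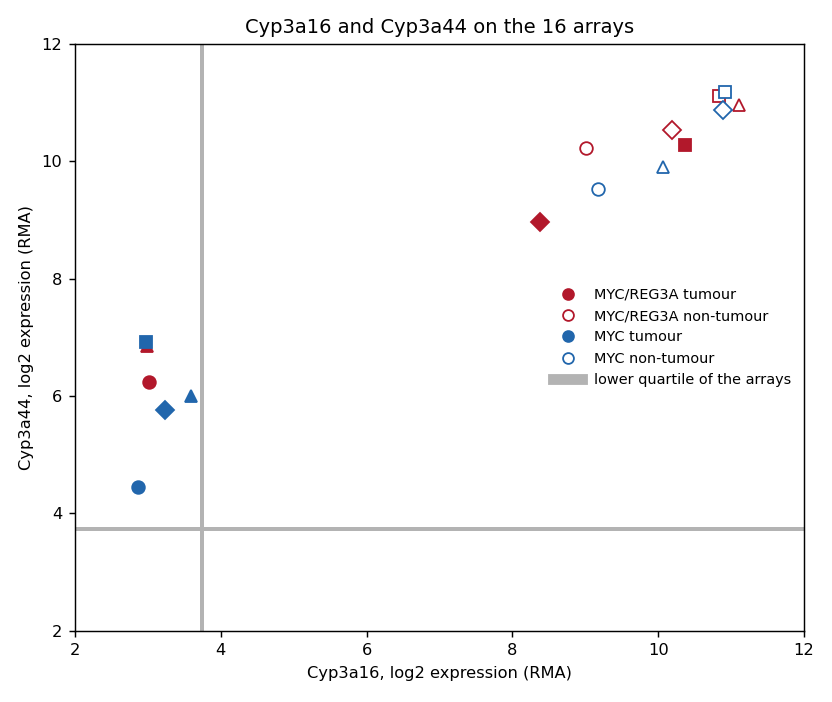
Log2 level of Cyp3a44 against Cyp3a16 on the 16 arrays, with filled marks for tumours, open marks for non-tumour liver, shapes for mice 1 to 4 as in the plot of levels, and grey bands at the arrays' lower quartiles. Filled MYC/REG3A marks of mice 2 and 4 lie at 10.36 and 8.38 on the Cyp3a16 axis, near the open marks, and the 6 other tumours lie left of the band.

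Among genes outside the family, those whose levels most resembled Cyp3a16 over the 16 arrays were Gpr180 (r = 0.986), Cyp2c69, another P450 (0.986), and Slc22a26, an organic anion transporter (0.980). For Cyp3a44 they were Gpr180 (0.985), Cyp2c69 (0.975) and Lrtm1 (0.972). For Cyp3a13 they were Stat3, a transcription factor of cytokine signalling (0.940), Mif4gd (0.934) and Steap4 (0.933). Cyp3a11 was most like Ywhah (0.885), Fam72a (0.869) and Ephx1, the microsomal epoxide hydrolase (0.869). Cyp3a59 was most like Mrs2 (0.904), Npnt (0.884) and Pif1 (0.882), and Cyp3a25 most like Tmem126a (0.818), H4f16 (0.763) and Mbnl3 (0.742). These are the top 3 of each gene by Pearson r among the tested genes, and they carry no test.

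The genotypes were then compared, to ask how the family differs between mice with and without the REG3A transgene. No member passed the test for a difference between the tumour changes of the genotypes, where 0.00738% of tested genes did, and none passed for the tumours themselves, where 0.0221% did. By unadjusted p under 0.05 from the same limma fits, 1 of 6 members, Cyp3a44, was below the threshold for the difference of changes, where 5.58% of genes were, and 2 of 6, Cyp3a16 and Cyp3a44, were for the tumours, where 10.6% were.

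Cyp3a16 averaged 6.19 ± 3.77 in MYC/REG3A tumours and 3.17 ± 0.323 in MYC tumours (SD, n = 4 each), a fitted difference of 3.02 (95% interval 0.37 to 5.67, limma adjusted p = 0.437). All 4 MYC tumours and 2 of 4 MYC/REG3A tumours lay near background, so this difference is a bound in neither direction. Cyp3a44 averaged 8.09 ± 1.87 in MYC/REG3A tumours and 5.79 ± 1.02 in MYC tumours, a difference of 2.30 (95% interval 0.76 to 3.84, limma adjusted p = 0.34). For both genes the groups overlapped, and the highest tumours were those of MYC/REG3A mice 2 and 4. Without these mice every remaining Cyp3a16 tumour value lay near background, so no difference is read, and the Cyp3a44 difference was 0.76 (adjusted p = 0.942). The tumour changes differed by 2.99 for Cyp3a16 (95% interval -0.23 to 6.21, limma adjusted p = 0.873) and by 1.97 for Cyp3a44 (95% interval 0.39 to 3.55, limma adjusted p = 0.873), and the second was 0.54 without mice 2 and 4. The Cyp3a16 value again rests on tumours near background in both genotypes. Over all settings tried, the adjusted p in tumours ranged from 0.114 to 0.996 for Cyp3a16 and from 0.0684 to 0.942 for Cyp3a44.

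The other members had nearly equal means in the tumours of both genotypes. Cyp3a11 averaged 9.61 ± 0.845 in MYC/REG3A tumours and 9.60 ± 0.309 in MYC tumours, with a 95% interval of the difference of -0.71 to 0.75. Cyp3a59 averaged 9.74 ± 0.671 in MYC/REG3A tumours and 9.71 ± 0.736 in MYC tumours, with an interval of -0.79 to 0.86. Cyp3a13 differed by -0.22 (95% interval -0.82 to 0.38) and Cyp3a25 by 0.10 (95% interval -0.85 to 1.05). Their tumour changes differed by 0.85 for Cyp3a11 (95% interval -0.32 to 2.03), -0.21 for Cyp3a13, 0.03 for Cyp3a25 and -0.03 for Cyp3a59, with limma adjusted p-values of 0.877 to 0.996. Intervals this wide include differences as large as the tumour changes of some members.

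In non-tumour liver 0 of 6 members differed between the genotypes by adjusted p, as did 0% of tested genes, and 1 of 6 had an unadjusted p under 0.05, where 5.45% of genes did. That member was Cyp3a11, at 7.84 to 8.75 in MYC/REG3A non-tumour liver and 8.95 to 9.85 in MYC non-tumour liver. The share of all tested genes whose groups lie as far apart was not counted, so nothing is read from these ranges. It averaged 8.43 ± 0.403 in MYC/REG3A and 9.26 ± 0.423 in MYC non-tumour liver, a difference of -0.83 (SE 0.341, 95% interval -1.56 to -0.11, limma adjusted p = 0.904). Its 18 alternative settings, refits of the same arrays, gave differences of -1.05 to -0.63, and it passed the test under none. The other 5 differed by -0.01 to 0.33, and Cyp3a16, at 10.29 ± 0.936 in MYC/REG3A and 10.26 ± 0.83 in MYC non-tumour liver, had an interval of -2.63 to 2.67.

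**Figure D4:**
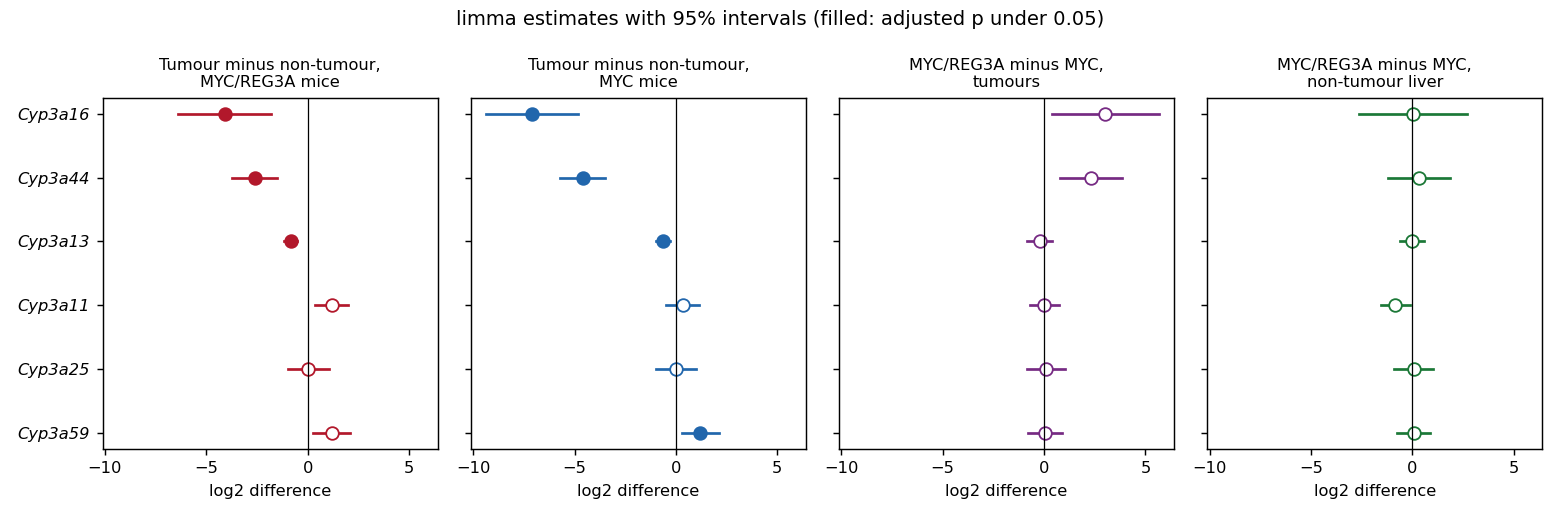
Differences on the log2 scale with 95% intervals from limma for the 6 genes in 4 comparisons, filled where the adjusted p is under 0.05. The 2 panels at the left hold 7 filled marks, 3 in MYC/REG3A mice and 4 in MYC mice, and the 2 panels at the right, which compare the genotypes, hold none.

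The transcription factors linked to 3A genes moved unevenly. Of 13 regulators tested, 0 rose and 1 fell in MYC/REG3A tumours (median -0.16) and 1 rose and 5 fell in MYC tumours (median -0.17), beside medians of -0.02 and -0.03 over all tested genes. Of all tested genes, 7.58% rose and 4.88% fell in MYC/REG3A tumours, and 17.4% rose and 15.8% fell in MYC tumours. The counts of the lists below stand beside the same shares. Onecut1, which encodes HNF6, had the lowest p of the list in MYC mice. Its level was 6.64, 9.73, 8.90 and 8.76 in MYC/REG3A tumours and 8.86, 9.98, 9.66 and 9.49 in their non-tumour liver. It was 7.02, 7.92, 7.16 and 6.41 in MYC tumours and 9.71, 9.82, 9.48 and 9.37 in their non-tumour liver. The tumour had less than the non-tumour liver in 8 of 8 mice, with differences of -2.22, -0.25, -0.76 and -0.73 in MYC/REG3A mice 1 to 4. In the same 4 mice the Cyp3a16 changes were -6.00, -0.47, -8.12 and -1.80, and the Cyp3a44 changes -3.99, -0.83, -4.11 and -1.57. Whether Onecut1 bears on either gene was not tested. The Onecut1 change was -0.99 in MYC/REG3A mice (limma adjusted p = 0.0471), a call that held under 7 of 19 alternatives, and -2.47 in MYC mice (adjusted p = 0.000697), which held under 19 of 19. The changes of the genotypes differed by 1.48 (unadjusted p = 0.00413, adjusted p = 0.873).

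The xenobiotic receptors moved in opposite directions in MYC mice. Nr1i3, which encodes CAR, had a change of -0.51 in MYC/REG3A mice (limma adjusted p = 0.0787) and fell by 1.01 in MYC mice (adjusted p = 0.00274). Nr1i2, which encodes PXR, had a change of 0.67 in MYC/REG3A mice (limma adjusted p = 0.0612; 1.09 and adjusted p = 0.03 without mice 2 and 4) and 0.62 in MYC mice (adjusted p = 0.0459, a call that held under 12 of 19 alternatives). Their partner Rxra had changes of -0.15 in MYC/REG3A mice and -0.07 in MYC mice, and passed the test in neither. Foxa1, a pioneer factor of liver, had a change of -0.16 in MYC/REG3A mice and fell by 0.81 in MYC mice (adjusted p = 0.00126). Hnf4a, a central hepatocyte factor, had a change of -0.19 in MYC/REG3A mice and fell by 0.28 in MYC mice (adjusted p = 0.0472). That call held under 8 of 19 alternatives and was lost, among others, in the fit without MYC/REG3A mice 2 and 4.

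**Figure D5:**
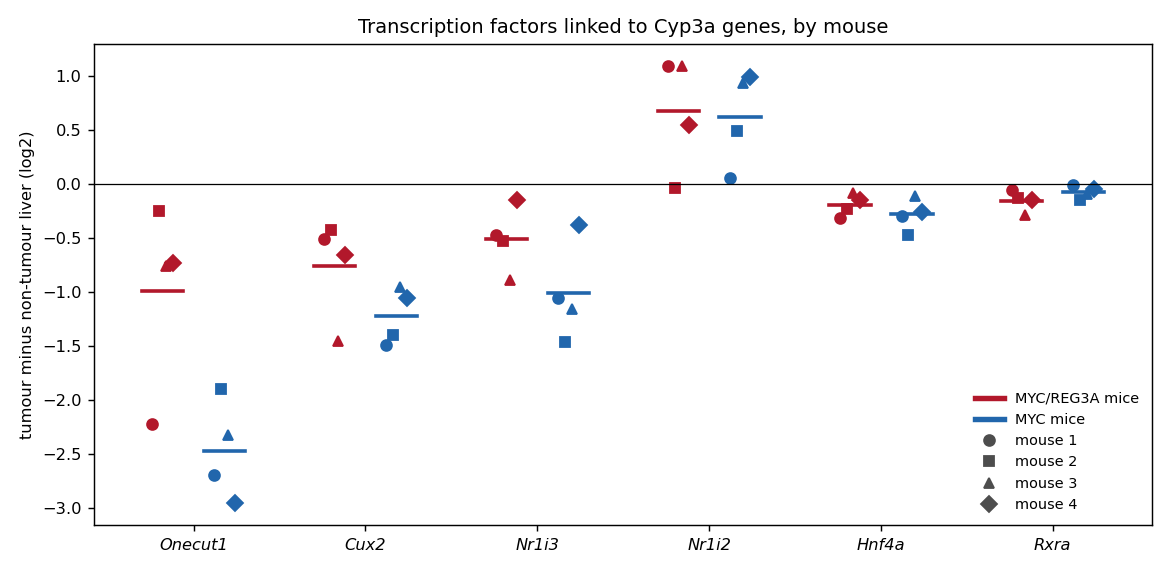
Tumour minus non-tumour log2 level of the same mouse for 6 transcription factors, with MYC/REG3A mice in red, left of MYC mice in blue, and bars at the mean of 4 mice. Onecut1 differences ran from -2.22 to -0.25 in MYC/REG3A mice and from -2.95 to -1.90 in MYC mice, and Nr1i2 lay above 0 in 7 of 8 mice.

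Other targets of PXR and CAR, the receptors that raise Cyp3a11, were also compared. Of 12 tested, 0 rose and 0 fell in MYC/REG3A tumours (median 0.18), where 7.58% and 4.88% of all tested genes did. In MYC tumours 0 rose and 2 fell (median -0.14), where 17.4% and 15.8% of all tested genes did. Nothing about the list as a whole is read from these counts. Those that fell were Cyp2c29, at -0.41 in MYC/REG3A mice and -1.80 in MYC mice (limma adjusted p = 0.00176), and Cyp2c55, at -0.18 in MYC/REG3A mice and -0.63 in MYC mice (adjusted p = 0.0241). Cyp2c55 rests on the choice of row: the mean of its rows gave a called rise of 1.16 in MYC/REG3A mice (adjusted p = 0.0221) and no call in MYC mice, where the fall held under 14 of 19 alternatives. Aldh1a1, a retinal dehydrogenase, had changes of 0.23 in MYC/REG3A mice and -0.73 in MYC mice (adjusted p = 0.588 and 0.0527). Cyp2b10, the standard target of CAR, had changes of 0.52 in MYC/REG3A mice and 1.27 in MYC mice, with a standard error of 0.676 for each, and did not pass the test.

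Genes of the growth hormone and STAT5 axis, which sets the sex bias of Cyp3a16 and Cyp3a44, fell in part. Of 11 tested, 0 rose and 4 fell in MYC/REG3A tumours (median -0.44), where 4.88% of all tested genes fell, and 1 rose and 7 fell in MYC tumours (median -0.70), where 15.8% of all tested genes fell. Cux2, a female-biased repressor, fell by 0.76 in MYC/REG3A mice (limma adjusted p = 0.0228) and by 1.22 in MYC mice (adjusted p = 0.00126). Igf1, the growth factor that growth hormone induces, fell by 0.57 in MYC/REG3A mice and by 0.83 in MYC mice. Jak2, the kinase of the growth hormone receptor, fell by 0.44 in MYC/REG3A mice and by 0.70 in MYC mice. Of these 3 falls in MYC/REG3A mice, that of Jak2 held under 9 of 19 alternatives, Cux2 under 14 and Igf1 under 16. Ghr, the receptor itself, had changes of -0.25 in MYC/REG3A mice and -0.23 in MYC mice. Stat5b had -0.01 in MYC/REG3A mice and 0.32 in MYC mice, and Bcl6, a male-biased repressor, 0.55 in MYC/REG3A mice and 0.34 in MYC mice, and none of the 3 passed the test.

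Female-biased liver genes outside the family fell widely. Of 11 tested, 5 fell in MYC/REG3A tumours (median -2.62), where 4.88% of all tested genes did. In MYC tumours 11 fell (median -4.56), where 15.8% of all tested genes did, and none rose in either genotype. Slc22a26 fell by 3.41 in MYC/REG3A mice (limma adjusted p = 0.0299) and fell by 6.17 in MYC mice (adjusted p = 0.00115). Its differences in MYC/REG3A mice 1 to 4 were -5.06, -0.52, -6.75 and -1.31, and the call there held under 15 of 19 alternatives, being lost without mouse 1 (-2.86, adjusted p = 0.142) or mouse 3 (-2.30, adjusted p = 0.115), with array weights and with that genotype alone. Without mice 2 and 4 the change was -5.90. The sulfotransferase Sult2a1 fell by 2.42 in MYC/REG3A mice (adjusted p = 0.0114) and by 4.89 in MYC mice (adjusted p = 0.000403). The sulfotransferase Sult2a2 had a change of -1.79 in MYC/REG3A mice (adjusted p = 0.0766) and fell by 5.52 in MYC mice (adjusted p = 0.00061). Sult2a1 lay below the lower quartile in 3 of 4 MYC tumours and Sult2a2 in 1 of 4, so both MYC falls are lower bounds. The Sult2a1 call in MYC/REG3A mice held under 17 of 19 alternatives and was lost without mouse 3 and with no block for the mouse. Earlier results of these data had shown such falls, so the list is no independent support. Of 12 male-biased genes listed, 8 were tested. Cyp4a12a, Hsd3b5, Slco1a1 and Ugt2b38 were too low to pass the filter, and Hsd3b5 and Ugt2b38 lay below the lower quartile on all 16 arrays. Of the 8 tested, 1 rose and 2 fell in MYC/REG3A tumours (median 0.91), where 7.58% and 4.88% of all tested genes did. In MYC tumours 3 rose and 1 fell (median 0.60), where 17.4% and 15.8% of all tested genes did. Cyp2d9, a male-biased steroid hydroxylase, rose by 2.10 in MYC/REG3A mice (adjusted p = 0.0307) and by 2.27 in MYC mice (adjusted p = 0.0091). Its MYC/REG3A call held under 15 of 19 alternatives and was lost without mouse 1 (1.49, adjusted p = 0.135), without mouse 4, with that genotype alone, and without mice 2 and 4 (2.24, adjusted p = 0.0762). Selenbp2, a selenium-binding protein gene, had a change of 0.94 in MYC/REG3A mice and rose by 1.92 in MYC mice, and Nudt7, a peroxisomal coenzyme A hydrolase, fell by 0.59 in MYC/REG3A mice and by 1.15 in MYC mice. The Nudt7 call in MYC/REG3A mice held under 14 of 19 alternatives and was lost without mice 2 and 4 (-0.53, adjusted p = 0.141).

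Genes that serve P450 enzymes were examined next. Of 4 electron partners tested, 0 rose and 1 fell in MYC/REG3A tumours and 0 rose and 2 fell in MYC tumours. Of all tested genes, 4.88% fell in MYC/REG3A tumours and 15.8% in MYC tumours. Pgrmc1, a haem protein that binds P450 enzymes, fell by 0.48 in MYC/REG3A mice (limma adjusted p = 0.0258) and by 0.78 in MYC mice (adjusted p = 0.00143), and Cyb5b, a cytochrome b5 of the outer mitochondrial membrane, had a change of -0.40 in MYC/REG3A mice and fell by 0.62 in MYC mice. Cyb5a, the cytochrome b5 that serves 3A enzymes, had changes of -0.01 in MYC/REG3A mice and -0.16 in MYC mice that did not pass. Of 10 genes of haem synthesis and breakdown, 0 rose and 1 fell in MYC/REG3A tumours and 0 rose and 2 fell in MYC tumours. Beside the same shares, nothing about the haem list as a whole is read from these counts. Fech, which inserts iron to make haem, fell by 0.52 in MYC/REG3A mice (adjusted p = 0.0156) and by 0.49 in MYC mice (adjusted p = 0.00641), the MYC/REG3A calls of Pgrmc1 and Fech being lost without mouse 1 or mouse 3, and that of Pgrmc1 with that genotype alone, and Blvrb, a biliverdin reductase, had a change of -0.39 in MYC/REG3A mice and fell by 0.97 in MYC mice. Alad and Alas1 encode early enzymes of haem synthesis. Alad had changes of -0.23 in MYC/REG3A mice and -0.44 in MYC mice, Alas1 had -0.05 in MYC/REG3A mice and -0.31 in MYC mice, and neither passed the test. In MYC mice Alad passed under 4 of 19 alternatives, among them the fit without MYC/REG3A mice 2 and 4. Por, the P450 reductase, was not analysed here for want of a row with its symbol alone.

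Some markers of other liver cells also fell in tumours, and their part in the changes of the 3A genes was not tested. Of all tested genes, 4.88% fell in MYC/REG3A tumours and 15.8% in MYC tumours. Of 8 Kupffer cell and macrophage markers 7 fell in MYC/REG3A tumours and 6 in MYC tumours, and of 8 sinusoidal endothelial markers 4 fell in MYC/REG3A tumours and 6 in MYC tumours. Of 8 stellate cell markers 3 fell in MYC/REG3A tumours and 5 in MYC tumours, and of 5 bile duct markers 0 fell in MYC/REG3A tumours and 2 in MYC tumours. Of 4 lymphocyte and neutrophil markers tested 1 fell in MYC/REG3A tumours and 2 in MYC tumours, of 11 hepatocyte markers 1 fell in tumours of each genotype, and no marker of any of these lists rose. The log2 of the summed Kupffer cell and macrophage markers was 10.3 to 11.7 in MYC/REG3A tumours and 12.05 to 12.5 in MYC/REG3A non-tumour liver, and 11.1 to 11.9 in MYC tumours and 11.6 to 13.2 in MYC non-tumour liver. For the sinusoidal markers it was 10.8 to 11.8 in MYC/REG3A tumours and 11.8 to 12.1 in MYC/REG3A non-tumour liver, and 11.2 to 11.5 in MYC tumours and 11.9 to 12.7 in MYC non-tumour liver. For the stellate markers it was 10.3 to 11.9 in MYC/REG3A tumours and 11.9 to 12.3 in MYC/REG3A non-tumour liver, and 11.1 to 11.8 in MYC tumours and 12.1 to 12.8 in MYC non-tumour liver. In 1 of 4 groups, MYC/REG3A tumours, 1 lymphocyte and neutrophil marker was below the lower quartile on all arrays. Alb, which encodes albumin, a defining product of the hepatocyte, had changes of -0.09 in MYC/REG3A mice and -0.16 in MYC mice, and neither passed the test (limma adjusted p = 0.529 and 0.187).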

How the data were processed

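Total RNA (200 ng a sample) was labelled as biotinylated single-strand cDNA and hybridised to expression arrays, per the labels' protocols. The deposited values are on the log2 scale. The submitters' processing notes name RMA and version 1.4.1 of Affymetrix Expression Console, with which the authors made them; the base of the logarithm was taken from the values and the settings are not given in the sources used here. Of 41345 rows, 23521 were annotated to 1 gene symbol, 1814 to several and 16010 to none; only the first kind was used, and no pair of arrays was identical.

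Genes had to exceed the array median on at least 4 of 16 arrays. The tumour changes and their difference were fitted with limma 3.58.1 in R 4.3.3 over all 16 arrays with mouse as a block, the genotypes within a tissue with 4 group means; p-values are 2-sided and Benjamini-Hochberg adjusted over 13555 genes, with a threshold of 0.05, and the procedure was tested on simulated data. The series' design text pairs the 2 tissues of a mouse. Deviations from the group means correlated at 0.0963 to 0.325 between the non-tumour liver and the tumour of the same mouse. Among the tumours of its genotype, the own tumour gave the highest correlation in 7 of 8 mice. The exception was MYC/REG3A mouse 3, at 0.0963. Alternatives were another or no block, another filter, the mean of a gene's rows, centring, cyclic loess, a trended prior, array weights, fits of the compared groups alone, and leaving out mice. The array number limits precision.

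The members and all gene lists were chosen with earlier results of these data known. Beside the members, the text names fixed regulators and, of each list, up to 3 members of lowest p in MYC mice; likeness is Pearson r over tested genes, without predicted models. List genes with no row of their own symbol were not analysed here. Promoter windows came from RefSeq (GRCm38.p6), were aligned with Biopython 1.88 in Python 3.11.15 (match 1, mismatch -1, gap opening -3, gap extension -1), and positions count from the start site.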

Additional observations from a re-analysis of the deposited data

Results flagged for a closer look

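Of 36 groups of 4 values looked at for the 6 genes, 2 held a value far from the other 3, by Dixon's test at the 95% level, and chance gives about 1 in 20 such groups. The first was the MYC tumour of mouse 2, where Cyp3a25 was at 7.27, against 8.95 to 9.18 in the other MYC tumours. The second was the tumour minus non-tumour difference of Cyp3a59 in MYC/REG3A mouse 2, at 0.0187, against 1.403 to 1.68 in the other MYC/REG3A mice. Neither value was left out of the fits above; without that mouse the Cyp3a25 change in MYC mice was 0.63 and the Cyp3a59 change in MYC/REG3A mice was 1.57, and the cause of either value was not tested.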

How the results depend on the processing

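Of 552 values of the 6 genes under other settings, 480 kept their direction and their side of the threshold, 22 lost a call, 7 gained one and 43 changed sign. Some settings cannot move an estimate, so the first count overstates how far the estimates were tried. Among them are the mean of a gene's rows, as no member has several, and leaving out mice of the other genotype from a paired tumour change. Calls of the members: the 1 rise in MYC mice went to 0 with no filter, cyclic loess, only the groups compared, or without MYC/REG3A mice 2 and 4, and lay at 0 to 1 leaving out single mice. In MYC/REG3A mice the 3 falls lay at 0 to 3 leaving out single mice, with 0 rises becoming 1 with no replicate block, 2 with a random replicate block, 1 with only the groups compared and 1 without mice 2 and 4 (0 to 2 leaving out single mice). With no replicate block, the difference of the changes called 0 genes; the paired fit is the one reported. Over all genes, leaving out single mice gave 273 to 1849 calls in MYC/REG3A mice (281 without mouse 1, 273 without mouse 3, 944 without mouse 4, against 1690) and 2975 to 4490 in MYC mice (2975 without mouse 4, against 4505). For the difference of the changes the 1 call became 0 with no filter, a stricter filter or without mice 2 and 4, 3 with array weights, and 0 to 2 leaving out single mice. The 3 calls between tumours became 0 with only the groups compared or without mice 2 and 4, and 3 to 114 leaving out single mice (114 without MYC/REG3A mouse 1, 21 without MYC mouse 2, 13 without MYC mouse 3); in non-tumour liver the 0 became up to 22, without MYC mouse 2. The cause of these shifts was not tested.

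Signs that turned belonged to values near 0, apart from Cyp3a16 between tumours and Cyp2c55 and Cyp2b10. In MYC mice, Cyp3a25 was -0.0352 with cyclic loess and -0.51 to 0.63 leaving out single mice; in MYC/REG3A mice it was -0.19 to 0.26. For the difference of the changes, Cyp3a25 was -0.16 with array weights and -0.59 to 0.55 leaving out mice, and Cyp3a59 was 0.0035 with cyclic loess, 0.45 without mice 2 and 4, and -0.48 to 0.44. Between tumours, array weights gave -0.0633 for Cyp3a11, -0.0895 for Cyp3a25 and -0.21 for Cyp3a59, and Cyp3a16 was -0.17 without mice 2 and 4, a difference between readings near background; leaving out single mice gave -0.20 to 0.43 for Cyp3a11, 1.62 to 4.08 for Cyp3a16, -0.34 to 0.30 for Cyp3a25 and -0.30 to 0.29 for Cyp3a59. In non-tumour liver, leaving out mice 2 and 4 gave 0.16 for Cyp3a13 and -0.20 for Cyp3a16, and single mice -0.20 to 0.19 for Cyp3a13, -0.34 to 0.45 for Cyp3a16, -0.32 to 0.29 for Cyp3a25 and -0.17 to 0.26 for Cyp3a59. Of the genes of the lists in MYC/REG3A mice, Stat5b was 0.0224 with centred arrays, 0.0289 with array weights and -0.0597 to 0.0353 leaving out mice, Cyb5a 0.0153 with centred arrays and -0.0572 to 0.0247, Alas1 0.0641 without mice 2 and 4 and -0.16 to 0.0244, Cyp2b10 -0.32 to 1.17, and Cyp2c55 1.16 with the mean of its rows and -0.29 to 0.059. Values below the lower quartile limit what Cyp3a16 can show in tumours.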

Other observations

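Other rows of the family bear on the members. Cyp3a57, a further gene of the cluster with a row of its own, lay at 2.99 to 3.31 on all 16 arrays, below the lower quartile of each, so no level of it could be compared. A pair of rows annotated to 4 family symbols each, which name no single gene, both averaged 11.4 in MYC/REG3A tumours and 12.2 in MYC/REG3A non-tumour liver. In MYC tumours one averaged 10.2 and the other 10.1, against 12.2 for both in MYC non-tumour liver. Over the 8 tumour minus non-tumour differences, the genes outside the family most like Cyp3a16 were Slc22a26 (r = 0.979), F8, which encodes coagulation factor VIII (0.978), and Smurf2 (0.974). For Cyp3a44 they were Cyp2d40 (0.975), Lrtm1 (0.968) and Cyp2c69 (0.964). Cyp3a25, which had no common direction across mice, was most like Decr2, a peroxisomal dienoyl-CoA reductase (0.974), Acad11 (0.968) and Reep6 (0.964). These correlations rest on 8 points, were picked as the highest among the tested genes outside the family without predicted models, and carry no test.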
